A study of Bos taurus with 48 samples.

Results

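The genes described here are 10 members of the chemokine system: the CXC ligands CXCL9, CXCL10 and CXCL11 with their receptor CXCR3, the CC ligands CCL2, CCL4, CCL8 and CCL11, and the CC receptors CCR1 and CCR3. They were picked by name, as the probes whose gene name, or the symbol closing the array's description, is one of these 10. Each was read from 1 probe among 21475 on the array. The array lists CCL11 as eotaxin under a gene number, which the RefSeq table links to that symbol. In 9 of the 10 genes the signal passed a filter (22 or more of the 44 samples with a signal well above background and of 80 units or more), as it did in 14711 probes. CXCR3 did not pass, since it did so in only 2 samples, and was not tested.

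Endometrium was taken on day 17 of the cycle from 22 lactating Holstein-Friesian cows of mixed New Zealand and North American ancestry, all with synchronised cycles. From each cow both the caruncles, the raised sites where the placenta will attach, and the gland-bearing tissue between them (intercaruncular) were sampled. The 12 pregnant cows had received a blastocyst on day 7, and the other 10 were cyclic. By the labels 7 embryos were large (over 20 cm and 75 mg) and 5 small (under 20 cm and 40 mg), and 6 of the pregnant cows were fertile and 6 sub-fertile, classes the labels do not define. Every sample carried Cy5 and shared its array with a common pool made from the 44 samples, which carried Cy3, and no dyes were swapped. There were 48 arrays, as caruncular RNA from 4 cows, 1 of them pregnant, was run a second time and the values averaged. Cows are named by letters, A to L pregnant and M to V cyclic. Values are log2 ratios of a sample to the pool, less the array's median, so that a difference of 1 is a factor of 2. They compare a gene between samples and not 1 gene with another.

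Chemokines are small secreted proteins that draw leukocytes along a gradient and act through receptors coupled to G proteins on the cells they attract. CXCL9, CXCL10 and CXCL11 are induced by interferons and share CXCR3, a receptor of activated T lymphocytes and natural killer (NK) cells, while the CC ligands mainly draw monocytes, T lymphocytes and eosinophils. In ruminants the elongating conceptus secretes interferon tau, the signal for recognition of pregnancy, and the endometrium answers with many interferon-induced genes at the time sampled here.

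The results turn mainly on 5 ligands, and their probes are shown so that a reader can see which stretch of each gene was measured. The first 30 of 60 bases of each probe, from the study's supplementary table, are these.
CXCL9: tcgcttttcaaaatccaaatgtgaacagtt
CXCL10: actgccacccctccaaggggcccatattct
CXCL11: tctccaggagatttgatacttttaactatt
CCL8: cttaggaaatcagtgctcctgtaagtggat
CCL11: gaagacatcactctcgtaaagcaaaggttt
The table holds probes for 8 of the 10 genes, all but CXCR3 and CCR3. Over the 28 pairs of whole probes the longest run of bases in common was 8 on the same strand and 9 against the other strand. The probes were compared with each other only and not with whole transcripts, so reading of a relative was not tested. In the RefSeq table for ARS-UCD2.0, CXCL10 and CXCL11 are direct neighbours, with 1 protein-coding gene between CXCL9 and CXCL10. CCL8, CCL11 and CCL2 also follow each other directly, as do CCR3 and CCR1.

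The first comparison asks which of these genes differ with pregnancy. In caruncular endometrium 8 of the 9 genes tested passed the threshold (limma, adjusted p under 0.05 and 1.5-fold or more), against 10.01% of the 14711 probes. In intercaruncular endometrium 7 of 9 passed, against 7.28%. All of these were higher in pregnant cows. Both counts include CCL11, whose call the filter fixed (see its values below), so they describe the list and support nothing further. The median change over the 9 genes was 2.59 and 2.03 on the log2 scale, against -0.04 and -0.01 over all probes tested.

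CXCL9 draws T lymphocytes and is induced chiefly by interferon gamma. Its caruncular log2 ratio ran from -2.88 to 2.24 (median 0.88) in pregnant cows and from -3.28 to -0.28 (median -2.04) in cyclic cows. Between the caruncles it ran from -2.26 to 1.77 (median 0.15) and from -3.46 to -1.09 (median -2.26). Most pregnant cows were high, 10 of 12 above every cyclic cow in the caruncles and 7 of 12 between them, but the groups overlapped in both tissues. The changes were 2.59 (standard error 0.48, adjusted p = 0.000472) and 2.11 (standard error 0.50, adjusted p = 0.00501). Its signal was well above background on 11 of 13 caruncular and 9 of 10 intercaruncular arrays of cyclic cows. With normexp background correction, which shrinks ratios of dim signals, the changes were 2.21 and 1.625.

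CXCL10, an early target of type I interferons, was the brightest of the 10 probes. In the caruncles its log2 ratio was -1.98 to 3.46 (median 1.31) in pregnant cows and -2.94 to -1.85 (median -2.45) in cyclic cows. In intercaruncular tissue it was -2.60 to 1.00 (median -0.83) against -3.23 to -2.53 (median -2.74). The cyclic cows lay close together while the pregnant cows spread widely, and in each tissue 1 pregnant cow fell within the cyclic range, cow E in the caruncles and cow D between them. The changes were 3.21 (standard error 0.50, adjusted p = 7.28e-05), a factor of 9.26, and 2.06 (standard error 0.43, adjusted p = 0.00185). In the caruncles the sample channel alone was 2.15 higher in pregnant than cyclic cows on the log2 scale, and the channel of the common pool was 1.11 lower, so part of this ratio came from the pool channel. For the other 9 genes the pool channel differed by at most 0.49 in either tissue, and no array had a saturated spot of any member.

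CXCL11, of the ligands of CXCR3 the one that binds it most tightly, ran from -2.06 to 2.62 (median 0.82) in caruncular tissue of pregnant cows and from -3.38 to -0.89 (median -2.01) in cyclic cows. Between the caruncles the values were -2.48 to 1.41 (median -0.40) and -3.40 to -1.94 (median -2.28). In each tissue 10 of 12 pregnant cows were above every cyclic cow, and cow E, the lowest pregnant cow in both tissues, was among the cyclic ones. The changes were 2.68 (standard error 0.47, adjusted p = 0.000252) and 2.03 (standard error 0.45, adjusted p = 0.00322).

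**Figure D1:**
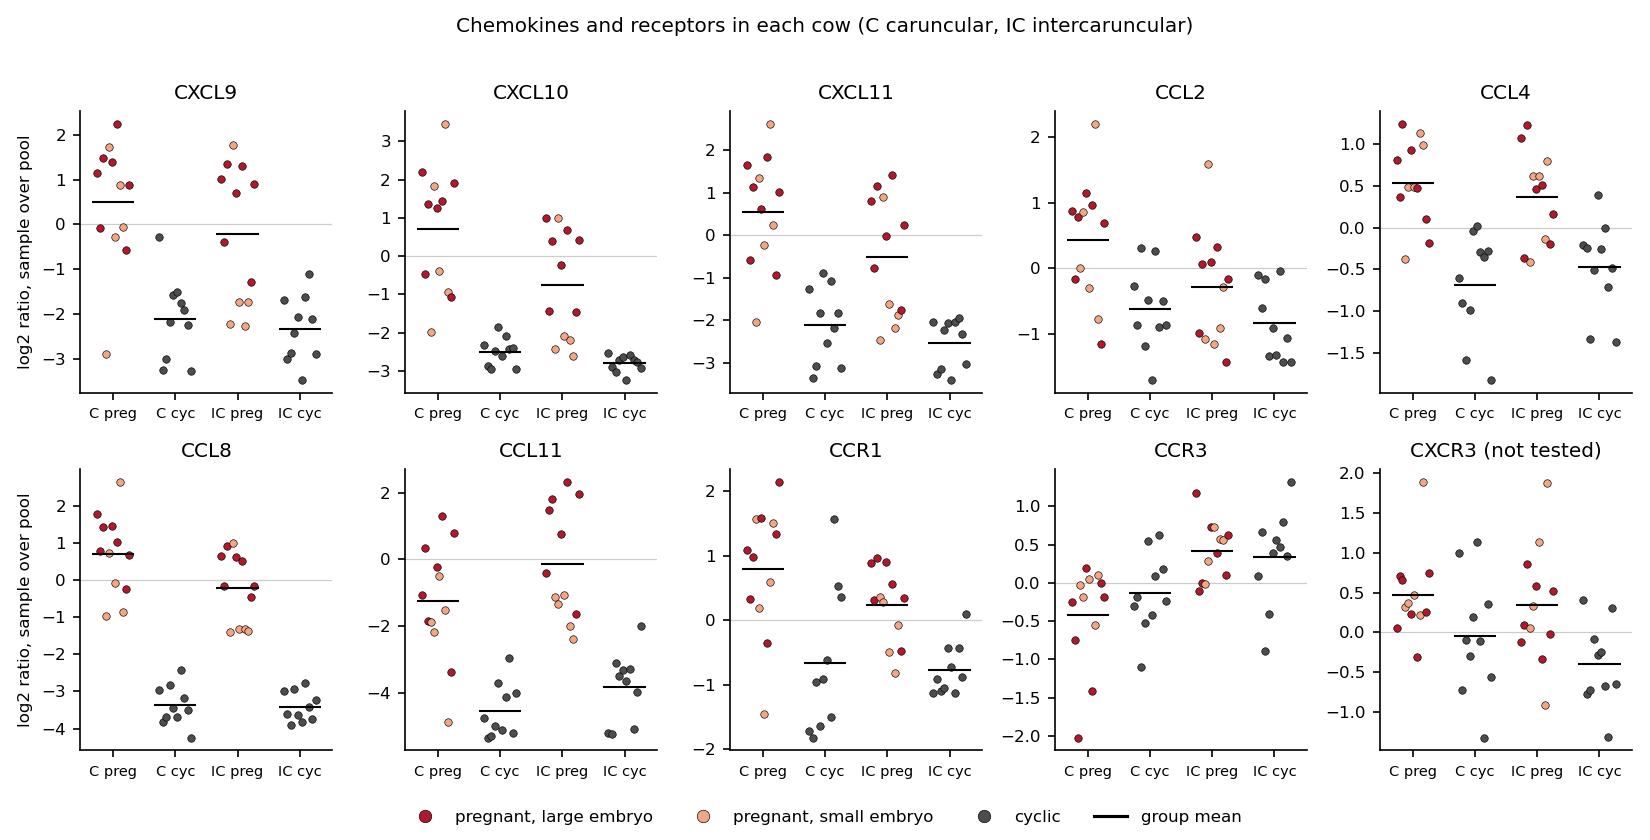
Log2 ratio of the sample to the pool for each of the 10 genes (vertical axes) in caruncular (C) and intercaruncular (IC) endometrium of pregnant and cyclic cows; each point is a cow, coloured by state and embryo size, and each bar a group mean. CCL8 separates all 12 pregnant from all 10 cyclic cows in both tissues, while CCR3 and CXCR3 overlap widely.

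CCL8, which draws monocytes and other leukocytes and is induced by interferons, separated the states completely. Its caruncular log2 ratio was -0.96 to 2.64 (median 0.74) in pregnant cows and -4.24 to -2.43 (median -3.47) in cyclic cows. Intercaruncular values were -1.40 to 1.00 (median -0.17) against -3.92 to -2.77 (median -3.51). Every pregnant cow was above every cyclic cow in both tissues, also each of the 5 with a small embryo. The change was 4.07 (standard error 0.36, adjusted p = 1.57e-08) in the caruncles, a factor of 16.8, and 3.20 (standard error 0.30, adjusted p = 9.03e-08) between them, a factor of 9.17.

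CCL11 (eotaxin) draws eosinophils through CCR3. Its signal was well above background on 12 of 13 caruncular and 12 of 12 intercaruncular arrays of pregnant cows, but on only 3 of 13 and 2 of 10 of cyclic cows. It passed the filter, in 24 samples, through the pregnant cows, so that it had to differ, and its ratios in cyclic cows rest on a signal near background. The log2 ratio was -4.89 to 1.31 (median -1.28) in caruncular and -2.37 to 2.32 (median -0.73) in intercaruncular tissue of pregnant cows. In cyclic cows it was -5.34 to -2.96 (median -4.87) and -5.23 to -1.99 (median -3.56). In each tissue 10 of 12 pregnant cows were above every cyclic cow. The changes were 3.30 (standard error 0.57, adjusted p = 0.000234) and 3.70 (standard error 0.58, adjusted p = 0.000123). With normexp background correction, which shrinks ratios of dim signals, they were 2.15 and 2.48, and their adjusted p over all alternatives ran from 1.02e-05 to 0.206 and from 5.3e-05 to 0.267.

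CCL4 (MIP-1 beta) and CCL2 (MCP-1), ligands for T lymphocytes and monocytes respectively, changed less. The log2 ratio of CCL4 was -0.38 to 1.24 (median 0.49) in caruncular tissue of pregnant cows and -1.82 to 0.02 (median -0.48) in cyclic cows. Between the caruncles it was -0.41 to 1.23 (median 0.48) and -1.37 to 0.39 (median -0.37). Each of the 12 pregnant cows exceeded the cyclic mean in both tissues, although the ranges overlapped. The changes of CCL4 were 1.23 (standard error 0.23, adjusted p = 0.000538) and 0.84 (standard error 0.22, adjusted p = 0.0113). CCL2 ran from -1.16 to 2.20 (median 0.74) in caruncular tissue of pregnant cows and from -1.70 to 0.30 (median -0.68) in cyclic cows, and between the caruncles from -1.44 to 1.59 (median -0.22) and from -1.43 to -0.04 (median -0.98). Its groups overlapped in both tissues, with 10 of 12 and 7 of 12 pregnant cows above the cyclic mean. The change was 1.05 (standard error 0.33, adjusted p = 0.0215) in the caruncles. Between them it was 0.55 (adjusted p = 0.203), which did not pass.

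Of the receptors, only CCR1 passed. CCR1, a receptor of monocytes and other leukocytes for several CC ligands, ran from -1.45 to 2.15 (median 1.04) in caruncular tissue of pregnant cows and from -1.82 to 1.57 (median -0.94) in cyclic cows. Between the caruncles it ran from -0.81 to 0.97 (median 0.34) and from -1.13 to 0.09 (median -0.89). In the caruncles the overlap was wide, since the cyclic cow V, at 1.57, was above 9 of the 12 pregnant cows, and 3 of 12 pregnant cows were above every cyclic cow, against 8 of 12 between the caruncles. The changes were 1.46 (standard error 0.43, adjusted p = 0.0151) and 1.00 (standard error 0.21, adjusted p = 0.00186).

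CCR3, the eotaxin receptor of eosinophils, did not move with its ligand. Its log2 ratio was -2.02 to 0.20 (median -0.19) in caruncular tissue of pregnant cows and -1.10 to 0.63 (median -0.21) in cyclic cows, and between the caruncles -0.11 to 1.18 (median 0.47) against -0.89 to 1.32 (median 0.43). Its signal was dim and reached the limits of the filter in 36 of 44 samples, so its ratios are less certain. No pregnant cow was above every cyclic cow in either tissue. The changes were -0.29 (adjusted p = 0.411) and 0.09 (adjusted p = 0.799), and the sign turned with the slide as a block in both tissues. CXCR3 was near background throughout, well above it on 4 of 13 caruncular arrays of pregnant and 3 of 13 of cyclic cows, and on 8 of 12 and 0 of 10 intercaruncular arrays. Its intercaruncular log2 ratio was -0.91 to 1.88 (median 0.22) in pregnant and -1.31 to 0.41 (median -0.46) in cyclic cows. The groups overlapped, and taken against the background of the cyclic arrays the pregnant signal was higher by a factor of 1.34 or more, with no test. The pool channel of CXCR3 was also 0.49 higher on the log2 scale on those arrays, so brightness of the arrays is not separated from this factor. In caruncular tissue CXCR3 was -0.30 to 1.89 (median 0.34) in pregnant and -1.32 to 1.14 (median -0.10) in cyclic cows.

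**Figure D2:**
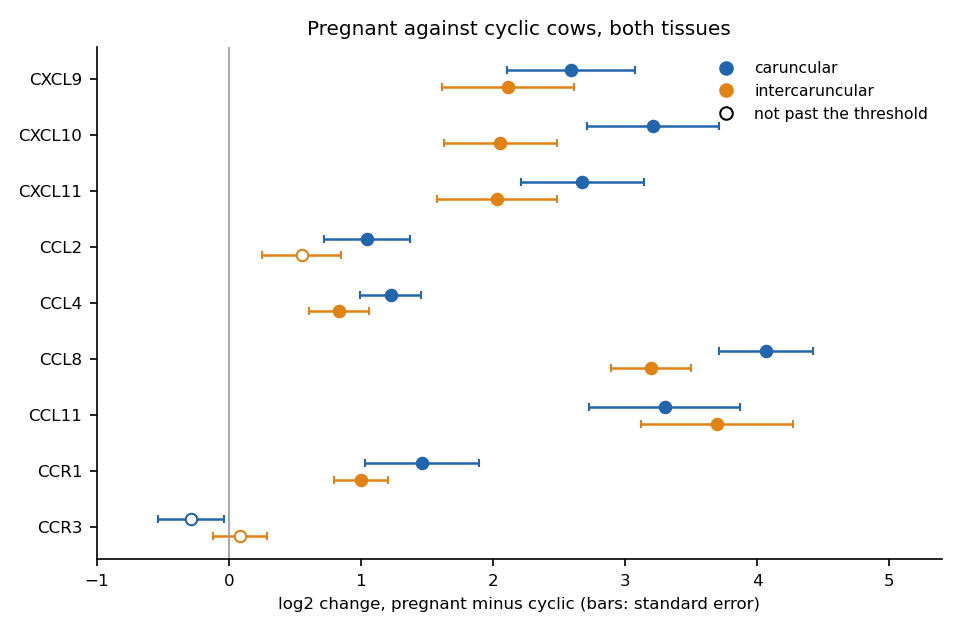
Change in log2 ratio from cyclic to pregnant cows (horizontal axis) for the 9 genes tested, in caruncular and intercaruncular endometrium; points are limma estimates, bars their standard errors, and open points did not pass the threshold. Apart from CCL11, whose cyclic signal was near background, CCL8 has the largest caruncular change, 4.07, and CCR3 lies on either side of 0.

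Slides and scan dates limit these comparisons, since most slides hold cows of 1 state. On the main scan date (11 pregnant, 9 cyclic cows) the caruncular differences were 4.14 for CCL8, 3.33 for CXCL10, 2.79 for CXCL11, 2.70 for CXCL9, 1.68 for CCR1, 1.29 for CCL4 and 1.16 for CCL2. On that of the intercaruncular arrays they were 3.22 for CCL8, 2.13 for CXCL10, 2.21 for CXCL11, 2.34 for CXCL9, 1.10 for CCR1, 0.86 for CCL4 and 0.59 for CCL2. On the other date the numbers are small. In the caruncles (2 pregnant and 4 cyclic arrays, of which 1 and 3 repeat cows of the main date) the differences there were 3.81 for CCL8, 2.82 for CXCL10, 2.54 for CXCL11, 3.17 for CXCL9, 0.99 for CCL4, 0.41 for CCL2 and 0.21 for CCR1. Between the caruncles (1 cow of each state) CCL8 differed by 2.96, CXCL10 by 1.25, CCL4 by 0.51 and CXCL11 by 0.18, and CXCL9 (-0.19), CCR1 (-0.05) and CCL2 (-0.01) were not higher in the pregnant cow. A slide with 3 pregnant cows and 1 cyclic cow in each tissue gave differences of 3.85 and 3.24 for CCL8, 2.43 and 2.09 for CXCL10, 2.00 and 2.40 for CXCL11 and 0.80 and 2.89 for CXCL9. CCL4 differed there by -0.08 and 0.05. CCL11 is left out where it was at background in the only cyclic cow. On a caruncular slide with 2 pregnant cows and 1 cyclic cow, where 1 array of each state is such a repeat, the differences were 4.84 for CCL8, 3.34 for CXCL10, 3.71 for CXCL11, 4.13 for CXCL9, 2.15 for CCL4, 0.79 for CCL2 and 0.11 for CCR1. Fitting each slide as a fixed block in limma leaves little but the slide with 3 pregnant cows and 1 cyclic cow in each tissue, and 0 of 9 genes passed in caruncular and 1 of 9, CCL8, in intercaruncular tissue, against 58 and 129 of all probes, and for CCL8 the adjusted p was 0.124 and 0.0368. With the slide as a random block 6 of 9 passed in each tissue, against 1118 and 656 of the 14711 probes, where CCL2 (1.08, adjusted p = 0.0617) and CCR1 (1.43, adjusted p = 0.0645) dropped out in the caruncles with changes much as before, and CCL4 (0.69, adjusted p = 0.126) between them. Over all alternatives the adjusted p ran from 0.00611 to 0.437 for CCL2 and from 0.00298 to 0.603 for CCR1 in the caruncles, and from 0.00615 to 0.987 for CCL4 between them.

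A limma interaction over the 44 samples asked whether pregnancy acted differently in the 2 tissues. It passed in 0 of the 9 genes, 0 of them also at an unadjusted p under 0.05, against 0.0204% of all probes (3 probes, and 1085 at an unadjusted p under 0.05). The largest differences were 1.16 for CXCL10 (adjusted p = 0.787) and 0.87 for CCL8 (adjusted p = 0.756), both larger in the caruncles. With pregnancy the sample channel of CXCL10 differed by 2.15 in the caruncles and 1.72 between them, and its pool channel by -1.11 and -0.33. Part of its 1.16 thus came from the pool channel. With the cow as a replicate block, fixed or random, again 0 of 9 genes passed, against 152 and 428 of the 14711 probes. So CCL2, which passed in the caruncles and missed the threshold between them, is not shown to respond differently.

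Caruncular and intercaruncular samples were then compared, first in the fit of the 4 groups, which does not pair the tissues of a cow, and then with the cow as a block. In pregnant cows 4 of 9 genes passed (adjusted p under 0.05 in limma), near the 46.5% of all probes, and in cyclic cows 0 of 9, against 36.04% (6643 probes and 0 of the 9 genes at an unadjusted p under 0.05). CXCL10 was higher in the caruncles in 12 of 12 pregnant cows, by 1.46 on average (standard error 0.46, adjusted p = 0.00776). On the log2 scale its sample channel averaged 15.24 in the caruncles and 14.34 between them, and its pool channel 14.47 and 15.08. Part of this ratio thus came from the pool channel. CCL8 was higher in 11 of 12, by 0.90 (standard error 0.32, adjusted p = 0.0201), and CXCL11 in 11 of 12, by 1.07 (standard error 0.45, adjusted p = 0.0473, but 0.0594 with no filter, within a range of 0.0018 to 0.95). CCR3 was lower in the caruncles in 12 of 12 pregnant cows, by a difference of -0.84 (standard error 0.22, adjusted p = 0.00193), and was also lower in 9 of 10 cyclic cows, at -0.47 (adjusted p = 0.13). The signal of CCR3 was dim, and with normexp these differences shrank to -0.56 and -0.34, so their size is uncertain. CXCL10 was also higher in the caruncles in 9 of 10 cyclic cows and CCL8 in 8 of 10, though neither passed there. The other 5 did not pass, with differences of 0.70 for CXCL9, 0.71 for CCL2, 0.18 for CCL4, 0.56 for CCR1 and -1.12 for CCL11. Markers moved with tissue too. In the caruncles of pregnant cows 5 of 5 stromal markers were higher (median 0.91), 4 of 5 epithelial ones lower and 1 higher (median -0.73) and 1 of 2 gland markers lower (median -1.18), and their part in the result was not tested. In cyclic cows the median difference over the 9 genes was 0.10, with adjusted p from 0.13 to 0.958.

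A cow stands out here. In cow A, with a small embryo, CXCL10 was 3.46 in the caruncles, the highest of all samples, and -2.20 between them, among the lowest of pregnant cows. Its difference of 5.66 compares with 0.40 to 1.71 in the other 11 cows, whose median with it was 1.08. The same cow had the widest differences for CCL8 (3.96, next 1.22), CXCL11 (4.81, next 2.11), CXCL9 (3.14, next 1.66) and CCL2 (3.11, next 1.08). So the mean tissue differences of these ligands owe a good deal to 1 animal, while their direction is shared by most cows.

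With the cow as a replicate block, since both tissues come from the same animal, 7 of 9 genes passed in pregnant cows, where 9218 (fixed block) and 9112 (random block) of the 14711 probes did, so most probes passed too. The fixed block added CCL11 (adjusted p = 0.00509), CCL2 (adjusted p = 0.00378) and CXCL9 (adjusted p = 0.0193), and the random block CCL11 (adjusted p = 0.011), CCL2 (adjusted p = 0.00423) and CCR1 (adjusted p = 0.0467). CCL2 also passed with normexp (adjusted p = 0.0397). In cyclic cows either form of the replicate block added CCR3 alone (adjusted p = 0.0266 and 0.0231), so 1 of 9 passed, against 8149 and 8010 of all probes. The tissues were scanned on different dates, except in 1 cow of each state. With scan date as a block 0 of 9 genes passed in pregnant cows, and 2 of all 14711 probes, so tissue and scan date cannot be told apart beyond those cows. Over all alternatives the adjusted p ran from 0.00509 to 1.0 for CCL11, from 0.00378 to 0.883 for CCL2, from 0.0193 to 0.989 for CXCL9, from 0.0467 to 0.303 for CCR1 and from 0.0231 to 0.999 for CCR3 in cyclic cows. In the pregnant cow with both tissues on 1 date, cow L, CXCL10 was -1.07 in the caruncles and -1.46 between them, CXCL11 -0.95 and -1.77, CCL8 -0.23 and -0.46, and CCR3 0.00 and 0.10. Each of these 4 differences had the direction of the group but was smaller, while CCR1 (1.34 and -0.47) and CCL11 (-3.36 and -1.64) differed by more than the group. In the cyclic cow on 1 date, cow V, CXCL10 was -2.43 and -2.71, CXCL11 -2.18 and -1.94, CXCL9 -1.91 and -1.09, CCL8 -3.18 and -3.42, CCL4 -0.35 and -0.71 and CCR3 0.63 and 0.80. In the same cow CCL11 was -2.96 and -5.07, the latter at background, CCR1 1.57 and -0.42 and CCL2 -0.90 and -1.42. Of these CXCL11, CXCL9, CCL4 and CCL11 went against the mean of the cyclic cows.

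Among the pregnant cows, the next comparison was between 7 large and 5 small embryos. In intercaruncular tissue 1 of 9 genes passed (adjusted p under 0.05 in limma), against 3.70% of all probes. That gene was CCL11. Its log2 ratio was -1.64 to 2.32 (median 1.49) with a large embryo, and -1.99, -1.06, -2.37, -1.12 and -1.33 with a small one. Of the 7 cows with a large embryo 6 were above every cow with a small one, and the 7th, cow L, was the lowest but 2 of the 12. The change was 2.47 (standard error 0.62, adjusted p = 0.0471). It passed in limma in 1 of 12 fits that left out a cow, the one without cow L (2.90, adjusted p = 0.00393), with changes of 2.24 to 2.90 and adjusted p up to 0.127 over these fits. With no filter (adjusted p = 0.0726) and with the fertility class as a covariate (adjusted p = 0.0514) it also missed, within a range of 0.00393 to 0.0726 over all other alternatives, and it was not tested with the stricter filter.

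CXCL9, CXCL10, CXCL11 and CCL8 were higher on average with a large embryo in intercaruncular tissue, but did not pass. CXCL10 was -1.46 to 1.00 (median 0.41) with a large embryo and -2.20, -2.09, -2.60, -2.42 and 1.00 with a small one. CCL8 was -0.46 to 0.90 (median 0.51) with a large embryo and -1.32, -1.31, -1.37, -1.40 and 1.00 with a small one. For both, 4 of 5 cows with a small embryo were below every cow with a large one, and the 5th, cow H, was the highest or level with the highest of all pregnant cows. Cow H shared its slide with cows I, J and K, all with a large embryo, and the 4 low cows were on other slides. The slide is thus not separated from the values of cow H. Cow H was also the highest of the small-embryo group for CXCL9, at 1.77 against -2.26, -1.72, -1.73 and -2.22, and for CXCL11, at 0.89 against -2.19, -1.62, -1.87 and -2.48. The changes were 1.57 for CXCL10 (adjusted p = 0.178), 1.15 for CCL8 (adjusted p = 0.13), 1.75 for CXCL9 (adjusted p = 0.166) and 1.60 for CXCL11 (adjusted p = 0.169). Without cow H these 4 passed in limma, with changes of 2.24 (adjusted p = 0.0254), 1.62 (adjusted p = 0.0116), 2.50 (adjusted p = 0.0196) and 2.19 (adjusted p = 0.0424). In that fit, which has 4 cows with a small embryo, 645 of all probes passed, against 545 with every cow, and leaving out a cow gave between 0 and 4 genes and between 34 and 1883 of all probes. Over the other fits that left out a cow and the other alternatives none of the 4 passed, and their adjusted p reached 0.341, 0.272, 0.348 and 0.34.

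For CXCL10, CXCL11 and CCL8 each of the 7 cows with a large embryo was above every cyclic cow between the caruncles. Of the 5 with a small embryo 4, 3 and 5 were. CXCL9 had 6 of 7 and 1 of 5. CCR1 was -0.47 to 0.97 (median 0.57) with a large embryo and -0.81, -0.49, -0.07, 0.36 and 0.28 with a small one, a change of 0.65 (adjusted p = 0.185), and it passed with scan date as a block (0.81, adjusted p = 0.0338, within a range of 0.0338 to 0.398, and changes down to 0.49 with a cow left out), which here leaves out cow L in effect.

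In caruncular tissue 0 of 9 genes passed for embryo size in limma, as did 0 of all probes (0%), while 1018 probes but 0 of 9 genes had an unadjusted p under 0.05. The groups overlapped for every gene. CCL11 differed most, at -3.36 to 1.31 (median -0.23) with a large embryo and -1.51, -0.49, -4.89, -1.86 and -2.17 with a small one, a change of 1.60 (adjusted p = 0.749). CXCL9 changed by 1.05 (adjusted p = 0.828), CCL8 by 0.69 (adjusted p = 0.862) and CCR1 by 0.53 (adjusted p = 0.894). Leaving out a cow moved these changes widely, from 0.93 to 2.07 for CCL11, 0.36 to 1.51 for CXCL9, 0.38 to 1.28 for CCL8 and 0.05 to 0.80 for CCR1 (limma, adjusted p from 0.338 to 0.997). Cow A, with a small embryo, had the highest caruncular CXCL10, CXCL11, CCL2 and CCL8 of all cows, and for CXCL10 and CCL8 some cows with a large embryo lay below cows with a small one also apart from cow A. No test of embryo size between the tissues was run.

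**Figure D3:**
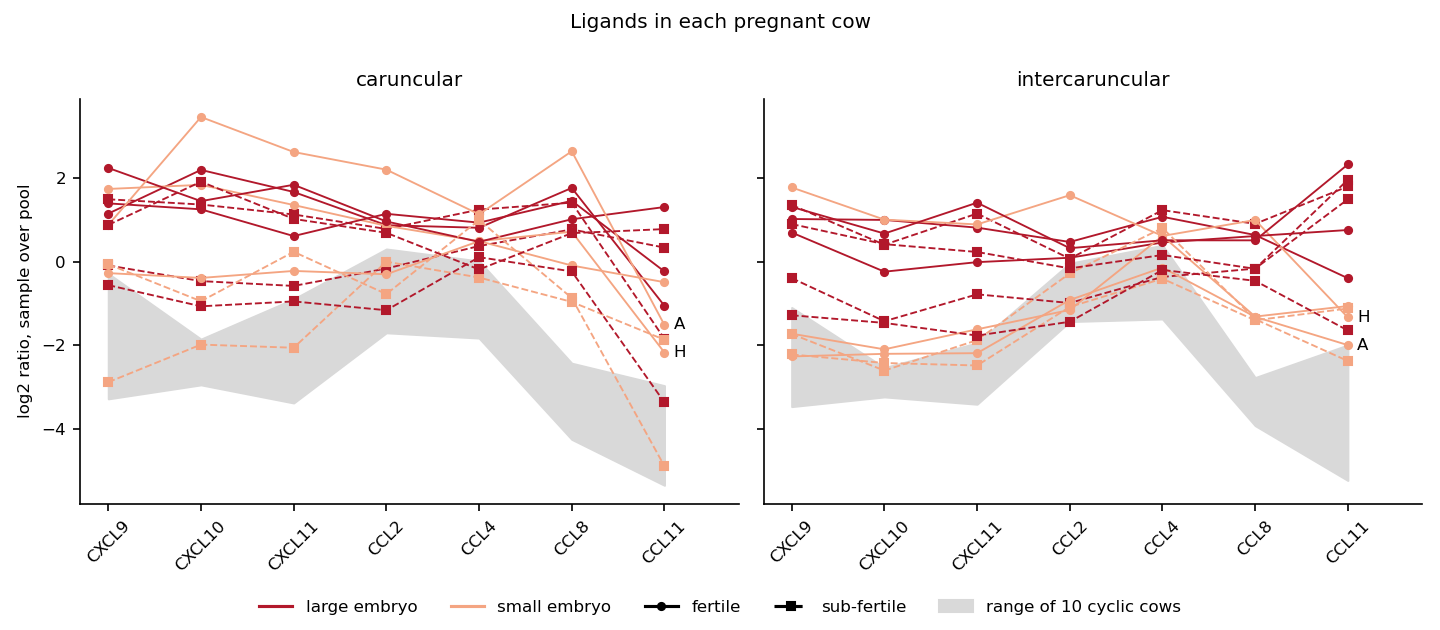
Log2 ratio of the 7 ligands (horizontal axis) in each of the 12 pregnant cows, a line a cow, coloured by embryo size and dashed for sub-fertile cows; the grey band spans the 10 cyclic cows. Between the caruncles 4 of 5 cows with a small embryo run below the rest for CXCL10 and CCL8, with cow H the exception, and in the caruncles cow A peaks at 3.46 for CXCL10.

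By fertility class, 6 fertile and 6 sub-fertile pregnant cows were compared, and 0 of 9 genes passed in limma in either tissue. Of all probes 0% passed in caruncular (2025 at an unadjusted p under 0.05) and 0.0476% in intercaruncular tissue (7 probes, and 2001 at an unadjusted p under 0.05). Of the 9 genes, 6 in caruncular and 1 in intercaruncular tissue had an unadjusted p under 0.05. In the caruncles CXCL10 was -0.39 to 3.46 (median 1.64) in fertile and -1.98 to 1.91 (median -0.70) in sub-fertile cows. CXCL11 was -0.22 to 2.62 (median 1.51) and -2.06 to 1.13 (median -0.17), and CCL2 was -0.30 to 2.20 (median 0.92) and -1.16 to 0.78 (median -0.08). Most fertile cows were high, with 4 of 6 sub-fertile cows below every fertile one for CXCL10 and 5 of 6 fertile cows above every sub-fertile one for CCL2, and the groups overlapped. The changes were 1.83 for CXCL10 (adjusted p = 0.318), 1.51 for CXCL11 (adjusted p = 0.313), 1.39 for CXCL9 (adjusted p = 0.36), 1.12 for CCL8 (adjusted p = 0.348) and 1.06 for CCL2 (adjusted p = 0.314). With the slide as a fixed block CXCL9 reversed to -0.41 (adjusted p = 0.917, within a range of 0.194 to 0.917) and CXCL11 was 0.52 (adjusted p = 0.896, within a range of 0.173 to 0.896). Fertility class and slide are partly mixed. The fertile cows H, I, J and K had their first arrays on a slide with no sub-fertile cow in each tissue. The sub-fertile cows E, F and G were on slides with no fertile cow. Their fertility class and slide cannot be fully told apart.

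CCR1 went the other way in the caruncles, at -1.45 to 1.58 (median 0.39) in fertile and 0.32 to 2.15 (median 1.43) in sub-fertile cows. The change of -1.04 did not pass (adjusted p = 0.344), and the ranges overlapped widely. Between the caruncles CCR3 was the 1 gene with an unadjusted p under 0.05, at 0.29 to 1.18 (median 0.65) in fertile and -0.11 to 0.63 (median 0.05) in sub-fertile cows, a change of 0.46 (adjusted p = 0.29). There 4 of 6 sub-fertile cows were below every fertile one. CCR3 was dim, and with normexp the change was 0.33. The 2 classes differ in embryo size too, with 3 and 2 small embryos, and leaving out a cow or adding embryo size as a covariate brought no gene past the threshold.

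The ligands varied together among the pregnant cows, as shown by Pearson r and Spearman rho over 12 cows, each with a permutation test of 100000 resamples, adjusted over the 42 pairs of both tissues. In caruncular tissue r was positive in 20 of 21 pairs (median 0.58) and passed an adjusted p under 0.05 in 9 (7 by both r and rho), and in intercaruncular tissue in 21 of 21 (median 0.69) and passed in 12 (11 by both). In the caruncles CXCL10 and CXCL11 had r = 0.94 (permutation p = 2e-05, adjusted p = 0.00028) and rho = 0.91 (permutation p = 0.00017, adjusted p = 0.00178). CXCL10 and CCL8 had r = 0.90 (permutation p = 8e-05, adjusted p = 0.00056) and rho = 0.77 (permutation p = 0.00488, adjusted p = 0.0156). Between the caruncles CXCL9 and CXCL11 had r = 0.98 (permutation p = 2e-05, adjusted p = 0.00028) and rho = 0.96 (permutation p = 2e-05, adjusted p = 0.00084). CXCL9 and CCL8 had r = 0.96 (permutation p = 2e-05, adjusted p = 0.00028) and rho = 0.93 (permutation p = 5e-05, adjusted p = 0.00098). CXCL9, CXCL10, CXCL11, CCL2 and CCL8 thus tended to be high in the same cows and low in the same cows. The permutation did not take into account that cows shared slides (see the gap of CXCL10 below). All 9 caruncular pairs that passed were among these 5, as were 10 of the 12 intercaruncular ones.

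The other 2 ligands passed in fewer pairs. CCL4 passed with no ligand in either tissue, with r from -0.22 with CCL11 to 0.62 with CXCL11 in the caruncles and from 0.13 with CCL11 to 0.62 with CCL2 between them. CCL11 passed with none in the caruncles, and between them with CXCL9 (r = 0.66, permutation p = 0.0235, adjusted p = 0.047; rho = 0.60, permutation p = 0.0426, adjusted p = 0.0777) and CXCL11 (r = 0.69, permutation p = 0.0164, adjusted p = 0.0345; rho = 0.71, permutation p = 0.0116, adjusted p = 0.0272). Both missed the threshold without the 2 cows farthest from the median (r = 0.58 and 0.62) and on the main scan date alone (r = 0.64 and 0.67), with adjusted p by permutation up to 0.717 and 0.867 over the alternatives. The r of CCL11 were not tested against those of the other ligands.

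Without the 2 cows farthest from the median of 1 ligand of the pair, so not the same cows for every pair, 5 of 21 caruncular and 10 of 21 intercaruncular pairs passed. In that fit r was 0.91 for CXCL10 with CXCL11 and 0.85 for CXCL10 with CCL8 in the caruncles, and 0.97 for CXCL9 with CXCL11 and 0.94 for CXCL9 with CCL8 between them. In the caruncles CXCL9 with CXCL10 (0.80 to 0.65), CXCL11 (0.86 to 0.70) and CCL8 (0.70 to 0.50), and CXCL11 with CCL8 (0.81 to 0.63), no longer passed by permutation (adjusted p = 0.0934, 0.0637, 0.213 and 0.113), so these rest in part on 2 cows. On the main scan date alone (11 cows) 9 and 10 pairs passed, with r of 0.94 and 0.98 for the strongest, and the other date holds 1 pregnant cow. Among the 7 cows with a large embryo r had a median of 0.71 and 0.82 and 5 and 9 pairs passed by r, and 0 by both r and rho.

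A limit is that CXCL10 leaves a gap among these cows. In the caruncles 5 cows lay at or below -0.39 and 7 at or above 1.25, and between the caruncles 6 lay at or below -1.42 and 6 at or above -0.24. The r over all cows therefore partly contrasts a low with a high group. Cows H, I, J and K shared a slide in each tissue, and all lay on the high side in both. No setting with the slide was run for r, so the part of the slide in these r was not tested. Chosen after seeing the data, r was also computed within each side of 6 or more cows (adjusted over 21 pairs on the low intercaruncular side and over 42 on the 2 high sides), where 0 pairs passed by permutation. At an unadjusted p under 0.05 there were 4 pairs on the low intercaruncular, 2 on the high caruncular and 1 on the high intercaruncular side. With so few cows a single pair can hardly pass, and dividing cows by CXCL10 narrows the range of every ligand that follows it, so these r are descriptions and the lack of calls says little. Among the 7 high caruncular cows the median r was 0.17, with 0.82 for CXCL10 and CXCL11 (permutation, adjusted p = 0.417) and -0.60 for CXCL9 and CXCL10 (permutation, adjusted p = 0.463). Between the caruncles the median was 0.58 on the low side and 0.31 on the high side, with 0.94 and 0.71 for CXCL9 and CXCL11 (permutation, adjusted p = 0.0875 and 0.433). Over all alternatives the adjusted p by permutation ran from 0.00028 to 0.417 for CXCL10 with CXCL11 and from 0.00378 to 0.463 for CXCL9 with CXCL10 in the caruncles, and from 0.00028 to 0.433 for CXCL9 with CXCL11 between them. How far the ligands follow each other within a level was not settled by 6 or 7 cows.

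**Figure D4:**
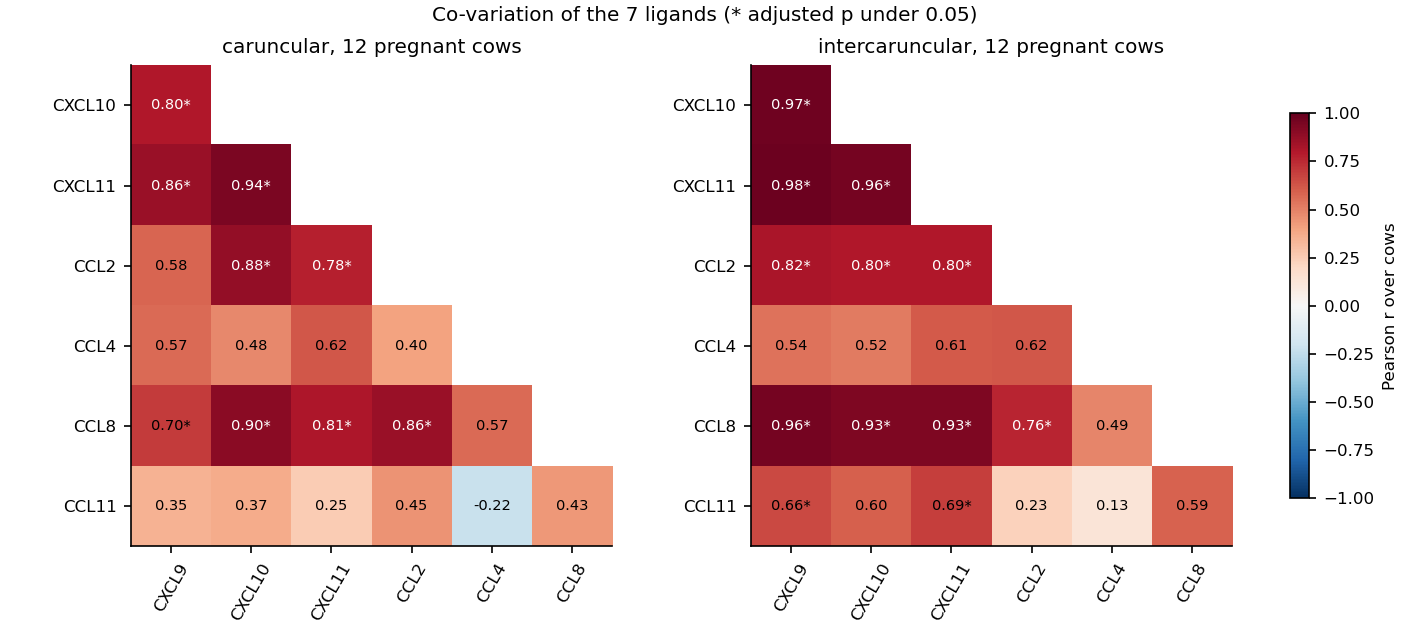
Pearson r over the 12 pregnant cows for each pair of the 7 ligands, in caruncular and intercaruncular endometrium; colour and number give r, and a star an adjusted p under 0.05. The block of CXCL9, CXCL10, CXCL11, CCL2 and CCL8 has the high values, up to 0.94 and 0.98, and CCL4 and CCL11 the low ones.

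A ligand's level in 1 tissue followed its level in the other only in part. Over the 12 pregnant cows r between the tissues was 0.77 for CXCL9 (permutation p = 0.00146, adjusted over 7 ligands p = 0.00812; rho = 0.80, permutation p = 0.00247, adjusted p = 0.00864) and 0.78 for CCL11 (permutation p = 0.00232, adjusted p = 0.00812; rho = 0.83, permutation p = 0.00159, adjusted p = 0.00864). The other 5 did not pass by r, at 0.59 for CXCL10, 0.55 for CXCL11, 0.45 for CCL2, 0.62 for CCL4 and 0.47 for CCL8, though CCL2 (rho = 0.66) and CCL4 (rho = 0.67) passed by rho (permutation, adjusted p = 0.0392 for each). Neither did with normexp (permutation, adjusted p = 0.0533 for each) or without 2 cows (rho = 0.61 and 0.43; permutation, adjusted p = 0.0942 and 0.217). Cow A, high in the caruncles and low between them, is far from the rest in these. Without the 2 cows farthest from the median r was 0.88 for CXCL11 and 0.86 for CCL8, both past the threshold (permutation, adjusted p = 0.00591 for each), 0.77 for CXCL9 (permutation, adjusted p = 0.028) and 0.66 for CCL11, no longer past it (permutation, adjusted p = 0.0744). In the same setting r was lower for CXCL10 (0.47), CCL2 (0.32) and CCL4 (0.35). The 2 cows were picked for each ligand by its own caruncular values, so they differ between ligands. Cow A was left out for CXCL11 and CCL8 and stayed in for CXCL9, CXCL10, CCL2, CCL4 and CCL11. So the relation of CCL11 rests in part on 2 cows. The adjusted p over the alternatives ran from 0.00591 to 0.1 for CXCL11, from 0.00591 to 0.147 for CCL8 and from 0.00812 to 0.0744 for CCL11.

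Over the 24 samples of pregnant cows, the genes outside the list whose values were most like those of each ligand, among 12304 named probes, were these. For CXCL10 they were MLKL (r = 0.97), TREX1 (r = 0.96) and USP18 (r = 0.95), for CXCL9 INDO (r = 0.93), CD180 (r = 0.92) and GTPBP1 (r = 0.91), and for CXCL11 INDO (r = 0.97), NOD27 (r = 0.91) and MLKL (r = 0.91). For CCL8 they were IFIT2 (r = 0.95), TREX1 (r = 0.94) and ISG15 (r = 0.93), and for CCL2 NBN (r = 0.92), MAIL (r = 0.91) and TAPBPL (r = 0.88). ISG15, IFIT2 and USP18 are interferon-induced genes, and INDO codes for the enzyme that breaks down tryptophan. CCL4 was nearest to SAMD3 (r = 0.81), SNX1 (r = 0.77) and GPR171 (r = 0.74), and CCL11 had PPIL3 (r = 0.84) and MYO5A (r = 0.84) among those most like it. These r are descriptions over pairs of samples from the same cows.

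Genes that lead from interferon to chemokine transcription were read from a list of 15, of which 13 were tested. In pregnant cows IRF9 (ISGF3G on the array), a transcription factor of the interferon response, rose by 2.49 and 2.01 on the log2 scale, and IRF1 by 1.22 and 0.66, and none of the list fell in either tissue. The median of the list was -0.04 and -0.13. IFNG, the gene for interferon gamma, and STAT2 were too dim to test.

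Of 34 other ligands listed, 25 were on the array and 17 tested. In caruncular tissue 2 rose, XCL1 by 0.65 and CCL3 (CCL3L1 on the array) by 0.64, and CCL28, a ligand made by mucosal epithelium, fell by 1.71, and in intercaruncular tissue CCL3 alone rose, by 0.60. CCL28 was well above background on 6 of 13 caruncular arrays of pregnant and 11 of 13 of cyclic cows, so the size of its fall is uncertain. The median of the 17 ligands was 0.10 in both tissues, against 2.59 and 2.03 for the members. Since the members were chosen with earlier results known and include CCL11, this contrast describes the lists only. Of 29 other receptors, 19 were on the array and 9 tested. In caruncular tissue CCR7 rose by 1.70 and CXCR4 by 0.75, and in intercaruncular tissue CCR7 by 1.25 and CCR10 by 0.65. CCRL1, which takes up chemokines without signalling, was well above background on every array of pregnant cows and on 2 of 13 and 2 of 10 arrays of cyclic cows, so it passed the filter, in 24 samples, through the pregnant cows and had to differ. CCR7 guides dendritic cells and lymphocytes to lymph nodes. Of 17 genes that relay or trim chemokines 16 were tested, and in caruncular tissue RGS1, which dampens receptor signals, rose by 0.62 and DPP4, a protease that trims CXCL10, fell by 0.71, with none past the threshold in intercaruncular tissue in limma.

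By tissue in pregnant cows, the interferon genes higher in the caruncles included IRF1 (0.51), IFNGR2 (0.42), JAK2 (0.40), IFNGR1 (0.33) and NFKB1 (0.30), and none of the list was lower, a share of the list near the 46.5% of all probes. Of the 17 other ligands 3 were higher there, CXCL14 by 2.26, CXCL12 by 0.49 and CCL3 by 0.26, and CCL28 was lower, at -1.87. The size of this last difference is uncertain, since CCL28 was well above background on 6 of 13 caruncular arrays, against 11 of 12 between the caruncles. Of the 9 other receptors 3 were higher, CMKOR1 by 1.12, CXCR4 by 0.59 and CCR10 by 0.36, and both shares are below the 46.5% of all probes. By embryo size CCRL1 alone of these 4 lists passed, with 1.64 more between the caruncles with a large embryo (adjusted p = 0.0248). By fertility class none of the 4 lists had a gene past the threshold in limma.

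Leukocyte markers were read beside the chemokines, since in whole tissue fewer cells of a type and less RNA per cell cannot be told apart. Of 10 markers of macrophages and monocytes, all tested, 7 rose in caruncular and 6 in intercaruncular tissue of pregnant cows. C1QB, the brightest, rose by 1.79 and 1.23, and MSR1 by 1.48 and 1.14. The median log2 ratio of the list per cow was -0.28 to 0.94 (median 0.17) in pregnant and -1.26 to -0.43 (median -0.76) in cyclic cows in the caruncles, and -0.65 to 0.68 (median 0.16) against -0.97 to -0.38 (median -0.64) between them. All 12 pregnant cows were above every cyclic cow in the caruncles and 9 of 12 between them. Between the caruncles it was -0.50 to 0.68 (median 0.42) with a large embryo and -0.65, -0.63, -0.15, -0.27 and 0.22 with a small one, with 0 of 10 markers past the threshold by size in limma. Their part in the result was not tested.

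Of the dendritic cell markers 2 of 4 tested rose in each tissue, LAMP3, the brightest, by 1.59 and 1.33 and CLEC9A by 1.18 and 0.85. The list's median per cow was 0.07 to 0.82 (median 0.43) in pregnant and -0.58 to 0.10 (median -0.30) in cyclic cows in the caruncles. Of 7 NK markers tested PRF1 (0.71) and NKG7 (0.75), the brightest, rose in the caruncles and none between them, with a median per cow of -0.10 to 0.82 (median 0.17) against -0.55 to 0.13 (median -0.13) in the caruncles. Of 8 T lymphocyte markers tested, CD247 the brightest, none passed in either tissue. In the caruncles the median per cow was -0.27 to 1.00 (median 0.09) in pregnant and -0.34 to 0.53 (median 0.06) in cyclic cows. Between them it was -0.10 to 0.54 (median 0.10) and -0.28 to 0.50 (median 0.18). CD5, CD6 and LCK, NCR1, and TBX21 and IFNG of T helper cells were too dim to test, CD6 on all 48 arrays. PTPRC, on all leukocytes, and 4 B lymphocyte markers did not pass in either tissue. In the NK list 8 of 12 pregnant cows were above every cyclic cow in the caruncles and 1 of 12 between them, and in the T lymphocyte list 1 and 2 of 12. Their part in the result was not tested.

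Of 3 markers of eosinophils, basophils and mast cells tested, HDC fell (by 0.72 and 0.70 on the log2 scale) and none rose, beside the rise of CCL11, and MS4A2 and GATA1 were too dim. The list's median per cow was -1.36 to 0.33 (median -0.34) in pregnant and -1.15 to 0.71 (median 0.02) in cyclic cows in the caruncles, with TPSB1 the brightest. Of 5 endothelial markers PECAM1 and TEK fell in each tissue, and of 5 stromal ones PDGFRA rose and COL3A1 fell in the caruncles, while COL1A1 and COL3A1 fell between them. Of 5 epithelial markers CDH1 rose in each tissue and KRT18 and KRT19 fell in the caruncles. Of 3 neutrophil markers S100A12 rose in the caruncles. Neither of 2 uterine gland markers passed. All 4 endometrial markers were measured, and ESR1 and OXTR fell in each tissue. Of 4 conceptus markers on the array 1, PAG1, was tested and did not pass, and CDX2, PAG2 and TKDP1 were too dim. By embryo size PECAM1 (-0.93) and COL3A1 (-0.92) were the only markers past the threshold, both lower with a large embryo between the caruncles. The median per cow did not overlap for the epithelial list between the caruncles, at -0.05 to 0.31 with a large and -0.30 to -0.18 with a small embryo. Nor did it for the macrophage and monocyte list in the caruncles, at 0.13 to 0.94 and -0.28 to 0.10. These lists were picked out after looking at every marker list in both tissues, and no gene of either passed by size. The share of all probes without overlap was not computed, so these ranges are descriptions only. The part of these markers in the chemokine results was not tested.

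**Figure D5:**
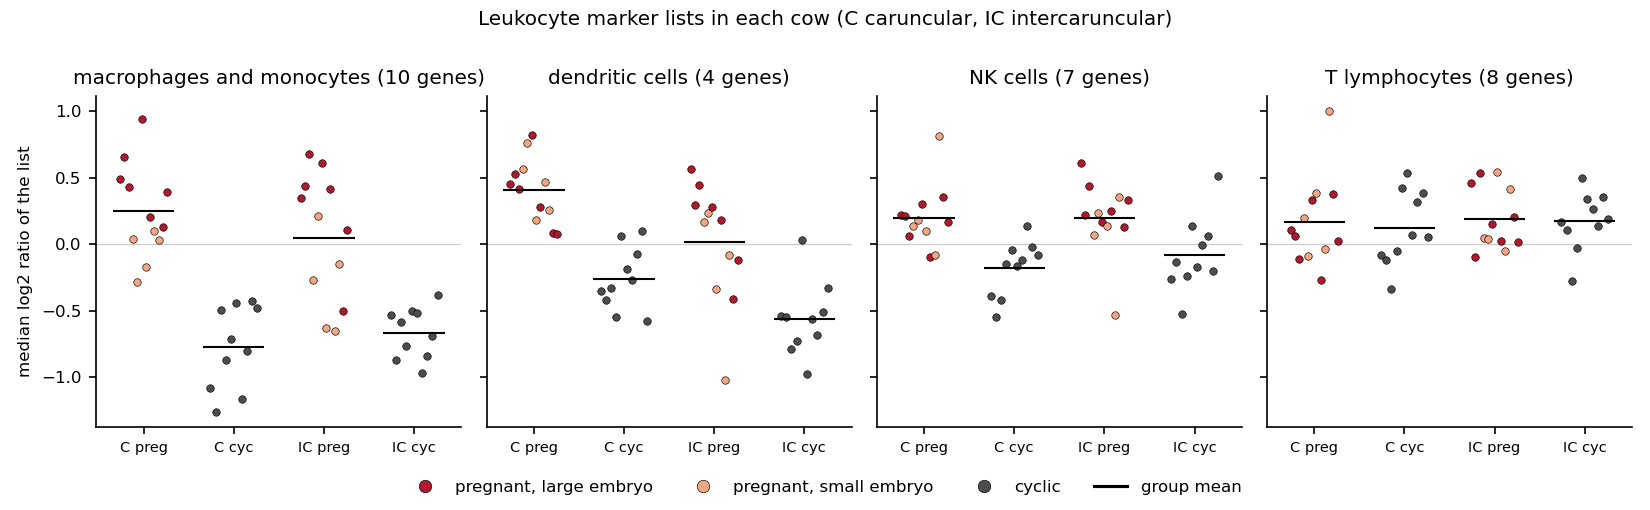
Median log2 ratio of 4 marker lists (vertical axis) in each cow, by tissue (C caruncular, IC intercaruncular), state and embryo size; bars are group means. The macrophage and monocyte list separates all 12 pregnant from the cyclic cows in the caruncles and 9 of 12 between them, and in the T lymphocyte list 1 and 2 of the 12 are above every cyclic cow.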

How the data were processed

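Scanner files of the 48 arrays were read. Per the file headers, Agilent Feature Extraction 9.5.3.1 made the intensity values, subtracted background, corrected the dyes by LOWESS and wrote log10 ratios. The authors' deposited matrix holds log2 ratios, and 17855 of its 17876 probes matched. Here the log10 ratios were turned into log2, spots of a probe averaged (a median of 2), each array's median subtracted and the repeat arrays averaged with the first. Per the file headers 3 scan dates were used, and slides come from the array barcodes. The lowest correlation between arrays was -0.41. Standard deviations between repeat arrays were 0.10 to 0.15. Both tissues of a cow share its number, and their correlations were 0.11 to 0.87, so they were taken as pairs in the fits with the cow as a block, while the fits of 4 groups did not pair them.

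The package limma 3.58.1 in R 4.3.3 (with data.table, version 1.17.8) was fitted across all 14711 probes passing the filter, with Benjamini-Hochberg adjustment. Comparisons by pregnancy are called at 1.5-fold and adjusted p under 0.05, others at adjusted p under 0.05. Correlations and figures used Python 3.11.15, pandas 2.3.3, numpy 2.4.6, scipy 1.17.1 and matplotlib 3.10.9, with permutation of cows. A named gene with several probes is represented by its brightest tested probe. The members and the lists were chosen with earlier results of these data known. Alternatives were normexp background correction (offset 50) with loess, no centring, the deposited matrix, no filter, a stricter filter (33 or more samples), 1 array of repeated samples, slide, scan date or cow as blocks, covariates, and each cow left out. The code was tested on simulated data.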

Additional observations from a re-analysis of the deposited data

Results flagged for a closer look

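A search for single cows far from the rest of their group looked at 90 groups of values of the members, and 4 had such a cow. The limit used is one that about 1 in 20 separate groups would pass by chance. These groups share cows and genes that vary together, so the count cannot be weighed against chance. All are the same cow, H, with a small embryo, in intercaruncular tissue, where its slide otherwise held cows I, J and K, each with a large embryo. CCL8 was 1.00 (the next highest cow with a small embryo -1.31), CXCL10 1.00 (next -2.09), CXCL11 0.89 (next -1.62) and CXCL9 1.77 (next -1.72). The 4 ligands vary together, so these are not 4 separate events, and the cause was not tested.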

How the results depend on the processing

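Beside each result other settings were run. Under settings other than leaving out a cow, 428 log2 changes kept their direction and side of the threshold. Of the rest 23 lost the call, 10 gained it and 7 reversed, and the cause was not tested. A lost call could go with a larger change, as for caruncular CCL2 by pregnancy (1.874 with the slide as a fixed block, against 1.045). With the slide as a fixed block 0 members passed by pregnancy in caruncular and 1 in intercaruncular tissue (58 and 129 of all probes, and 656 intercaruncular with slide as a random block), CCL4 was -0.08 and CCR3 0.10 in the caruncles, CCR3 -0.39 between them (-0.035 with slide random), and CXCL9 by fertility in the caruncles -0.41. Leaving out a cow gave 8 and 7 members by pregnancy each time, with CCR3 between the caruncles from -0.048 to 0.197. By tissue, scan date as a block gave 0 members in pregnant cows, with CCL11 at 0.007 and CCR3 in cyclic cows at 0.049 (2 probes in each state). The replicate block (cow, fixed or random) gave 7 and 7 members in pregnant and 1 and 1 in cyclic cows (8149 and 8010 probes), and the replicate block changed no other member call. The interaction gave 11 probes with no filter, 6 with the repeat array only, 8 with scan date and 152 and 428 with the replicate block, with 0 members each time. By embryo size between the caruncles 0 members passed with no filter, 0 with the stricter filter, 0 with fertility as a covariate, 2 with scan date, and 0 to 4 with a cow left out (319 probes with no filter, 1883 with scan date, 878 and 1088 with slide random and fixed, 34 to 1883 with a cow left out). By fertility 0 to 2 caruncular probes passed with a cow left out, and between the caruncles 4 with no filter, 43 with scan date, 3 and 0 with slide random and fixed and 3 to 43 with a cow left out. Of the caruncular ligand pairs 5 passed without 2 cows, 5 with large embryos only and 0 above the gap of CXCL10, and of the intercaruncular pairs 0 below and 0 above it. Above it in the caruncles r was -0.60 for CXCL9 with CXCL10, -0.09 with CXCL11 and -0.46 with CCL8. Between the caruncles it was -0.15, -0.66, -0.06 and -0.42 below the gap for CCL2 with CXCL9, CXCL10, CXCL11 and CCL8, and -0.36 above it for CXCL9 with CCL11. Each member has 1 probe, so the choice of probe changes nothing. Median signal over background was 22.9 and 21.9 in caruncular tissue of pregnant and cyclic cows and 15.4 and 11.7 in intercaruncular tissue. The median share of spots well above background was 71.5% and 71.7%, and 72.6% and 70.0%. How well dim genes were measured in each tissue was not tested.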
